A study of Mus musculus with 8 samples.

Results

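The MIP-1 group of CC chemokines was examined in bone marrow derived macrophages (BMDMs), the cells obtained when bone marrow is cultured until it has become macrophages. The group comprises Ccl3, Ccl4, Ccl5, Ccl6 and Ccl9, and its 5 genes were taken from the deposited count tables by symbol out of 53735 genes listed. All 5 were abundant enough to be tested, among 14418 genes tested in all. CC chemokines are small secreted proteins that draw leukocytes along a gradient by binding receptors of the G protein coupled class. Those of the MIP-1 group act through receptors such as Ccr1 and Ccr3 on monocytes, T cells, eosinophils and other leukocytes. Activated macrophages are a known source of Ccl3, Ccl4 and Ccl5, whose transcription is driven largely by NF-κB and, for Ccl5, also by interferon regulatory factors, whereas Ccl6 and Ccl9 are rodent members that myeloid cells produce without acute stimulation.

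RNA-seq compared WT (Mkl1+/+, Apoe-/-) with KO (Mkl1-/-, Apoe-/-) mice, 4 libraries of each, to ask how loss of Mkl1, a coactivator of serum response factor, changed macrophage mRNA. All mice were 6 month-old C57BL/6J males that lacked Apoe and had received Ang II from a minipump for 7 days, so no library came from mice without Ang II or with intact Apoe. Marrow was then differentiated for 7 days in culture, Mkl1 was deleted in every cell of the KO animals, and WT controls were littermates or came from sibling mates. The libraries fell into 2 experiments, the first with WT libraries 1 and 2 and KO libraries 5 and 6, the second with WT libraries 3 and 4 and KO libraries 7 and 8. Nothing in the labels ties each library to its own animal or culture, so the p-values given here measure the spread between these libraries only.

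Each library held between 33977799 and 41584540 counts, and levels are given in CPM, the counts relative to library size after TMM scaling. Mkl1 mRNA lay at 25.6 and 27.1 CPM in WT and at 19.5 and 20.9 CPM in KO libraries of experiment 1 (log2 fold change -0.39, adjusted p = 0.00381, edgeR), and at 26.8 and 29.6 CPM in WT and 14.6 and 10.4 CPM in KO libraries of experiment 2 (-1.17, adjusted p = 0.0218). It was thus reduced but not absent, and less reduced in KO libraries 5 and 6 (difference between experiments -0.79, adjusted p = 0.0238, edgeR interaction test). The 10 macrophage markers were detected in every library, with summed levels of 16612 to 36752.5 CPM, and 3 were lower and 6 higher in KO in experiment 1, where 28.1% of all genes were lower and 27.0% higher, and 2 lower and 2 higher in experiment 2, beside 8.29% and 7.52%. Adgre1, which encodes F4/80, had log2 fold changes of -2.11 and 0.91 and Csf1r, the receptor of M-CSF, of 0.82 and -1.28 in experiments 1 and 2. KO libraries 5 and 6 stood apart in that 9 fibroblast markers summed to 229 and 301 CPM, against 2.76 to 14.7 CPM in the 6 other libraries, and 8 of the 9 were higher in KO in experiment 1. KO libraries 7 and 8 lay nearer to the WT libraries of the other experiment than to those of their own, with Spearman's rho over 14418 genes of 0.989 to 0.991 against WT libraries 1 and 2 and of 0.952 to 0.968 against WT libraries 3 and 4. KO libraries 5 and 6 showed no such nearness to the other experiment, with 0.947 to 0.955 against WT libraries 3 and 4 and 0.951 to 0.957 against WT libraries 1 and 2. The part of any of these in the results below was not tested. Whether the KO libraries were exchanged between the experiments cannot be told from the files. Results are given for each experiment as labelled, which is no safeguard against an exchange, and the members are also set against the WT libraries of the other experiment further on. Experiment 2 as labelled holds no library with high fibroblast markers.

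The 5 genes lie together on chromosome 11. In GENCODE M21 on GRCm38, the build of the deposited files, Ccl5 occupied chr11:83525778-83530518, Ccl9 chr11:83572919-83578636, Ccl6 chr11:83587882-83593087 and Ccl3 chr11:83647844-83649355, all on the minus strand, and Ccl4 chr11:83662584-83664683 on the plus strand. The cluster spanned 138.906 kb and contained 7 annotated genes. The other two were E230016K23Rik, a non-coding transcript that runs over Ccl6 on the opposite strand and is not analysed here, and Rpl9-ps1, which had 26 counts over all libraries. No exon of a member overlapped an exon of another gene in this annotation, whereas RefSeq has a predicted Ccl4 transcript that runs over Ccl3. The coding sequences encode 92 residues in Ccl3 and Ccl4, 91 in Ccl5, 116 in Ccl6 and 122 in Ccl9. The closest relatives by coding sequence were Ccl6 and Ccl9, identical at 70.6% of aligned bases, and Ccl3 and Ccl4, identical at 70.0%. The other pairs ranged from 59.4% to 66.2%. The longest run of identical bases between any pair was 23, in Ccl6 and Ccl9.

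The sequences around the transcription starts are shown for the 3 members found in the RefSeq promoter table of GRCm38.p6 (250 bases before the start to 50 bases after it). They are shown because Ccl6 and Ccl9 hold a similar stretch there, at different distances from the start, while their levels did not move together. Ccl4 and Ccl5 are not in that table. All 3 lie on the minus strand, Ccl9 at chr11:83578587-83578886, Ccl6 at chr11:83593038-83593337 and Ccl3 at chr11:83649329-83649628. Capitals mark matches to the motifs named below.
Ccl9: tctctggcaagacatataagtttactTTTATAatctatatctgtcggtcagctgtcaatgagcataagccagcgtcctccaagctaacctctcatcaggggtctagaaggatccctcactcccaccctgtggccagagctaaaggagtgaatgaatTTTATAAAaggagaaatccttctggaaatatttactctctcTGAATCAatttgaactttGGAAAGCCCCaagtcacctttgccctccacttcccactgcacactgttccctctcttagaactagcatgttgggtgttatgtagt
Ccl6: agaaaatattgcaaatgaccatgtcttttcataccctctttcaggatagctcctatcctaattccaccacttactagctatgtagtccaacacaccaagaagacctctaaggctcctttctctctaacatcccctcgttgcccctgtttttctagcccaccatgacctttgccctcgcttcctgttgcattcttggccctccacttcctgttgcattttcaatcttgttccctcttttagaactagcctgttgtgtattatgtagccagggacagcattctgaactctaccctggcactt
Ccl3: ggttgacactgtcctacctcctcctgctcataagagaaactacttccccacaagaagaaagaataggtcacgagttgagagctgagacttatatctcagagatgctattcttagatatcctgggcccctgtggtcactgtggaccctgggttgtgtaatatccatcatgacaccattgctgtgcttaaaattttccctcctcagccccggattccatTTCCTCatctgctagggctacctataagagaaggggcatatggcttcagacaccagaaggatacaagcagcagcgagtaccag
Over the best local alignment, Ccl6 and Ccl9 were identical at 58 of 67 aligned bases, with 7 bases of gaps, in a stretch from -59 to 15 of Ccl6 and from -18 to 49 of Ccl9. Ccl3 and Ccl6 were identical at 52 of 72 aligned bases, with 13 bases of gaps, and Ccl3 and Ccl9 at 31 of 44, with 5. Both strands were searched for 8 motifs, namely those of NF-κB, the CArG box of serum response factor and the interferon element ISRE by name, AP-1 (TGANTCA), CRE (TGACGTCA), C/EBP (TTGCNNAA), PU.1 (GAGGAA) and TATAAA as in the TATA box. The Ccl9 promoter held a match to NF-κB at -35 to -26, found in 8.46% of 32851 promoters in the table, and one to AP-1 at -53 to -47, found in 7.81%. Both matches lie outside the stretch that Ccl9 shares with Ccl6. AP-1 reads alike on both strands and was counted once. The Ccl9 promoter also held matches to TATA at -224 to -219 and, overlapping on both strands, at -94 to -87, a motif found in 13.6% of promoters. The Ccl3 promoter held PU.1 at -33 to -28, found in 28.3%, and the Ccl6 promoter none of the 8. The remaining motifs were found in 1.79% (CRE), 3.44% (ISRE), 1.63% (CArG) and 10.8% (C/EBP) of promoters. RefSeq begins Ccl3 upstream of the GENCODE start, which falls at base 274 of the printed sequence. A match describes letters and not a bound site.

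Ccl3 and Ccl4 fell in KO in both experiments, Ccl9 fell in experiment 2 and Ccl5 and Ccl6 rose in experiment 1. In experiment 1, 2 of 5 members fell in KO and 2 rose (adjusted p under 0.05, edgeR), where 28.1% of all genes tested were lower and 27.0% higher, so that neither count stood far from its background. With the spread taken from all 4 groups, the 2 decreases were still called and neither increase was. In experiment 2, 3 of 5 were lower and none higher, against 8.29% lower and 7.52% higher of all genes. For higher genes in experiment 2, edgeR also gave none at an unadjusted p under 0.05, and DESeq2 and limma-voom gave none. With both experiments in one fit, 2 of 5 were lower, against 3.41% of all genes, and none was higher, against 3.72% of all genes. In that fit too no member was higher in edgeR at an unadjusted p under 0.05, nor in DESeq2 or limma-voom. The median log2 fold change of the 5 members was -0.22, -1.83 and -1.14 in experiment 1, in experiment 2 and in both, beside 0.01, 0.01 and 0.00 for all genes. In bulk RNA, fewer cells of a type and less mRNA per cell cannot be told apart.

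**Figure D1:**
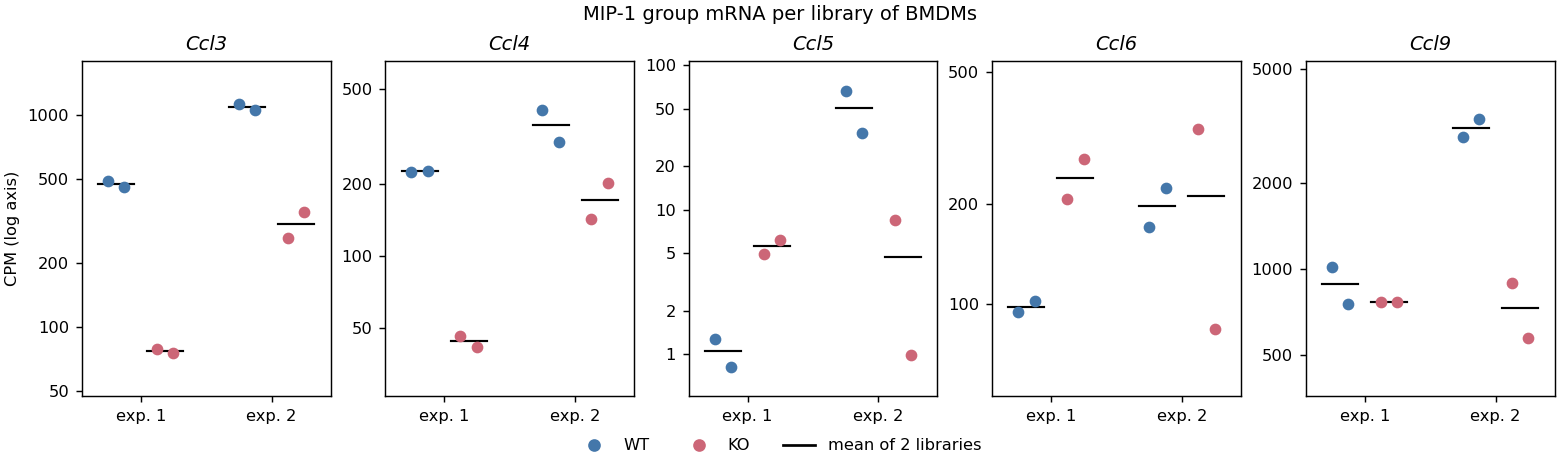
Level of each member in CPM on a log axis, 1 point per library, WT in blue and KO in red, with a line at the mean of the 2 libraries of a group. For Ccl3 and Ccl4 all KO points lie below all WT points, for Ccl5 and Ccl9 the WT libraries of experiment 2 stand above the rest, and for Ccl6 the KO libraries of experiment 2 lie at 338 and 84.3 CPM, on either side of both WT libraries.

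Ccl3 (MIP-1α), a ligand of Ccr1, fell in both experiments and in the joint fit. It measured 489 and 456 CPM in WT libraries 1 and 2, 78.8 and 75.6 CPM in KO libraries 5 and 6, 1119 and 1056 CPM in WT libraries 3 and 4, and 263 and 347 CPM in KO libraries 7 and 8. All KO values were lower than all WT values, also across experiments, which was so for 6.25% of all genes tested. In experiment 1 the level was 6.17-fold lower in KO, a log2 fold change of -2.63 (SE 0.067, adjusted p = 3.13e-07, edgeR quasi-likelihood test). In experiment 2 it was 3.56-fold lower, a log2 fold change of -1.83 (SE 0.19, adjusted p = 0.00886). The decrease in both was 4.67-fold (log2 fold change -2.22, SE 0.19, adjusted p = 0.00267). No fit within either experiment that left out a library, changed the tool, the scaling or the filter, or pooled the spread of all 4 groups ended this call. The joint call was lost without the experiment term (log2 fold change -2.03, adjusted p = 0.162) and with the KO libraries exchanged, as given further on.

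Ccl4 (MIP-1β), an attractant of monocytes and T cells whose gene is the neighbour of Ccl3, measured 224 and 227 CPM in WT libraries 1 and 2 and 46.2 and 41.3 CPM in KO libraries 5 and 6. In experiment 2 it measured 408 and 299 CPM in WT and 142 and 201 CPM in KO. Here too no KO value reached the WT values, with KO library 8 close to the lowest WT value. Ccl4 fell 5.20-fold in experiment 1 (log2 fold change -2.38, SE 0.070, adjusted p = 4.55e-07) and 2.06-fold in experiment 2 (-1.04, SE 0.24, adjusted p = 0.0445). The joint log2 fold change was -1.70 (SE 0.30, adjusted p = 0.0231). The call in experiment 2 was lost without WT library 3 (log2 fold change -0.81), without KO library 7 (-0.82) and without KO library 8 (-1.31). The last value is a larger decrease than with all libraries, so its loss does not show that the decrease rested on KO library 8. The joint call was lost, with an adjusted p between 0.0550 and 0.0956, without WT library 1, 2 or 3 or KO library 5, 6 or 7, and was 0.195 without the experiment term.

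Levels of Ccl3 and Ccl4 fell in the same order of groups, WT of experiment 2 first, then WT of experiment 1, KO of experiment 2 and KO of experiment 1. No neighbouring groups in this order overlapped, but how many of all genes are so ordered was not counted. Both genes were higher in experiment 2 than in experiment 1 also within KO, where the means of 2 libraries differed 3.95-fold for Ccl3 and 3.92-fold for Ccl4. Their decrease was smaller in experiment 2, by 0.78 on the log2 scale for Ccl3 (SE 0.19, adjusted p = 0.0149) and by 1.32 for Ccl4 (SE 0.27, adjusted p = 0.00760), in the interaction test of edgeR. The call for Ccl3 was lost without WT library 1 (adjusted p = 0.0568) and without KO library 6 (adjusted p = 0.0620). Of 5 members, 4 differed between experiments in this test, as did 41.6% of all genes.

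Ccl9 (MIP-1γ), a ligand of Ccr1, was the most abundant member by CPM in every library. It measured 1012 and 753 CPM in WT libraries 1 and 2 and 767 and 765 CPM in KO libraries 5 and 6, where the groups overlapped. In experiment 2 it measured 2886 and 3325 CPM in WT and 889 and 574 CPM in KO, with no overlap. The share of all genes so separated within a single experiment was not counted, here or for the other members. WT libraries 3 and 4 were the ones that stood out, 3.52-fold above the WT mean of experiment 1, while the KO means, 766 CPM in experiment 1 and 732 CPM in experiment 2, differed by less than KO libraries 7 and 8 did from each other. Ccl9 fell 4.25-fold in experiment 2 (log2 fold change -2.09, SE 0.26, adjusted p = 0.0132), and the call was lost without KO library 8 (-1.80, adjusted p = 0.0601). In experiment 1 the log2 fold change was -0.22 (SE 0.14, adjusted p = 0.249). It was 0.017 without WT library 1, and it passed the test without WT library 2 (-0.41, adjusted p = 0.00323) and with no filter on low counts (-0.25, adjusted p = 0.00139). The effect differed between the experiments by -1.88 (SE 0.32, adjusted p = 0.00344), and the joint value of -1.14 (SE 0.42) had an adjusted p of 0.146 in edgeR and 0.0233 in DESeq2.

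Ccl6 (C10), the close relative of Ccl9 by sequence and a ligand of Ccr1 as well, did not follow it. It measured 94.5 and 102 CPM in WT libraries 1 and 2 and 207 and 274 CPM in KO libraries 5 and 6. In experiment 2 it measured 171 and 224 CPM in WT and 338 and 84.3 CPM in KO. The KO libraries of experiment 2 thus enclosed the WT libraries and differed 4.01-fold from each other. Ccl6 rose 2.43-fold in experiment 1 (log2 fold change 1.28, SE 0.15, adjusted p = 0.00157). When the spread was taken from all 4 groups, this value was 1.29 with an adjusted p of 0.0893. In experiment 2 the log2 fold change was 0.10 (SE 0.64, adjusted p = 0.932), and it was -1.23 without KO library 7. The joint value was 0.69 (SE 0.46, adjusted p = 0.395), and without KO library 8 it was 1.09 and passed the test (adjusted p = 0.0267). The difference between experiments, -1.20 (SE 0.75), had an adjusted p of 0.233, and it passed with no filter on low counts. It was -2.49 without KO library 7 and -0.52 without KO library 8.

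Ccl5 (RANTES), a ligand of Ccr1 and Ccr3 that T cells and stimulated macrophages make, was the least abundant and the most variable member, with an 81.4-fold range over the libraries. It measured 1.28 and 0.821 CPM in WT libraries 1 and 2, which is 52 and 28 counts, and 4.95 and 6.20 CPM in KO libraries 5 and 6. In experiment 2 it measured 66.9 and 34.2 CPM in WT and 8.44 and 0.983 CPM in KO. KO lay above WT in experiment 1 and below it in experiment 2, and the KO libraries of experiment 2 differed 8.59-fold from each other. Ccl5 rose 5.20-fold in experiment 1 (log2 fold change 2.38, SE 0.25, adjusted p = 0.000110). With the spread of all 4 groups the value was 2.39 and the adjusted p 0.0664. In experiment 2 the log2 fold change was -3.42 (SE 0.97, adjusted p = 0.0797). This value passed the test in DESeq2 (adjusted p = 0.0482), without KO library 7 (-5.68, adjusted p = 0.0384) and with the spread of all 4 groups (adjusted p = 0.0141). The opposite directions gave a difference between experiments of -5.82 (SE 1.18, adjusted p = 0.00720), which did not pass without WT library 2 (adjusted p = 0.0518). The joint value was -0.65 (SE 1.72, adjusted p = 0.862).

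T cell and natural killer cell markers, 10 in number, summed to 0.812 to 2.53 CPM in all libraries, and Cd3e and Gzma had no count in any. WT libraries 3 and 4, the ones high in Ccl5, had the highest of these sums, 2.36 and 2.53 CPM, carried by Lck with 2.08 and 1.78 CPM. They also had the highest sums of 8 dendritic cell markers, 32.5 and 47.8 CPM against 1.70 to 30.02 CPM in the 6 other libraries. That sum was carried by Itgax, with 30.9 and 46.7 CPM, while Flt3 was at 0.0293 CPM or less in every library. Their part in the levels of Ccl5 and Ccl9 was not tested. Neutrophil markers summed to 38.9 to 80.3 CPM, carried by Csf3r, which macrophages also express, and Retnlg had no count. Mast cell and basophil markers summed to 1.41 to 8.28 CPM, mostly Kit, with Fcer1a, Mcpt4, Cma1 and Tpsb2 at 0. Mcpt8 had 1.16 and 1.27 CPM in KO libraries 5 and 6 and no count elsewhere. Of 8 eosinophil markers, Epx, Il5ra, Ear1 and Ear6 were at 0 and the sum of 4.51 to 15.2 CPM was mostly Ccr3. B cell markers summed to 1.29 to 6.60 CPM. Osteoclast markers, many of which macrophages share, summed to 85.8 and 92.5 CPM in WT and 206 and 199 CPM in KO in experiment 1. In experiment 2 they summed to 92.5 and 176 CPM in WT and 89.2 and 74.7 CPM in KO.

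**Figure D2:**
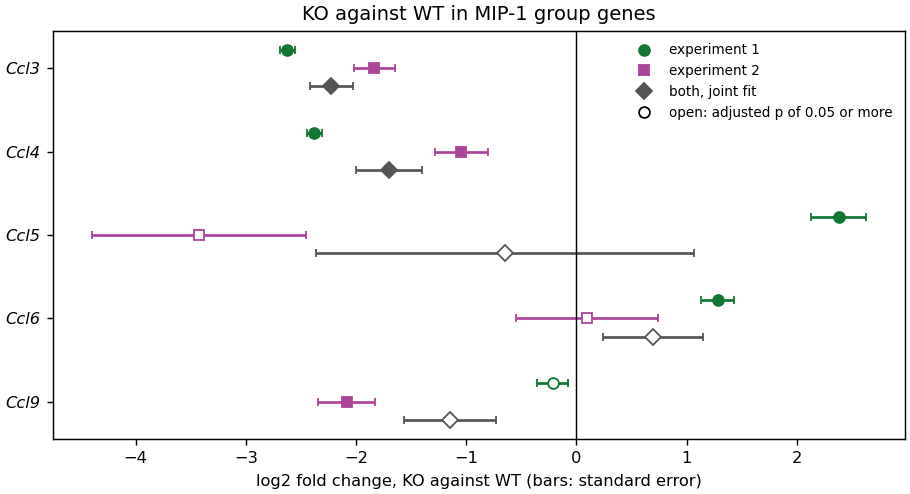
Log2 fold change of KO against WT for each member in experiment 1, in experiment 2 and in both, with the standard error as a bar and open symbols where the adjusted p was 0.05 or more. The 3 values of Ccl3 and of Ccl4 are filled and lie below 0, whereas those of Ccl5 lie at 2.38 and -3.42 in the separate experiments.

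Since KO libraries 7 and 8 resembled WT libraries 1 and 2 over all genes, the members were also set against the WT libraries of the other experiment, a comparison chosen after the data were seen. KO of experiment 2 against WT of experiment 1 gave log2 fold changes of -0.63 for Ccl3 (SE 0.14), -0.39 for Ccl4 (SE 0.19) and -0.27 for Ccl9 (SE 0.22), and of 2.15 for Ccl5 (SE 0.90) and 1.11 for Ccl6 (SE 0.53). KO of experiment 1 against WT of experiment 2 gave -3.82 for Ccl3 (SE 0.15), -3.02 for Ccl4 (SE 0.21), -3.18 for Ccl5 (SE 0.78), 0.28 for Ccl6 (SE 0.53) and -2.02 for Ccl9 (SE 0.23). Ccl3 was lower in both by several times its SE, though for KO of experiment 2 by much less than against its own WT. The values of Ccl9 in the first and Ccl6 in the second give no direction at their SE. In a joint fit whose experiment term had the KO libraries exchanged, edgeR called no member, with 3 lower at an unadjusted p under 0.05, and the log2 fold changes were -2.22 for Ccl3 (adjusted p = 0.0990) and -1.70 for Ccl4 (adjusted p = 0.106).

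Levels of different genes were compared after division by exon length. On this scale of CPM per kb of exon the 5 members summed to 1364 and 1244 in WT libraries 1 and 2, 545 and 572 in KO libraries 5 and 6, 3192 and 3084 in WT libraries 3 and 4, and 1048 and 994 in KO libraries 7 and 8. Every KO sum was thus below every WT sum on this scale. Without division by length the sums were 1821 and 1539 CPM in WT libraries 1 and 2, 1104 and 1163 CPM in KO libraries 5 and 6, 4652 and 4938 CPM in WT libraries 3 and 4, and 1641 and 1207 CPM in KO libraries 7 and 8, so that KO library 7 lay above WT library 2 and the groups overlapped across experiments, though not within either. Ccl3 held 44.7% to 47.9% of the pool in the WT libraries, and 18.9%, 17.3%, 32.8% and 45.6% in KO libraries 5 to 8. Ccl9 held 19.9% to 35.4% in WT, and 46.2% and 43.9% in KO libraries 5 and 6, where it was the largest member by this measure, but 27.9% and 19.0% in KO libraries 7 and 8. Ccl6 took 2.99% to 4.56% in WT and 21.1%, 26.7%, 18.0% and 4.72% in KO libraries 5 to 8, so that only KO library 8 came near the WT range. Ccl5 never exceeded 2.18%. Without division by length Ccl9, whose exons are the longest at 3045 bases, held 58.9% on average over the 8 libraries instead of 30.8%. Within the Ccl3 and Ccl4 pair the ratio of the per-kb levels was 1.73 to 3.04 in WT and 1.47 to 1.59 in KO libraries, without overlap.

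**Figure D3:**
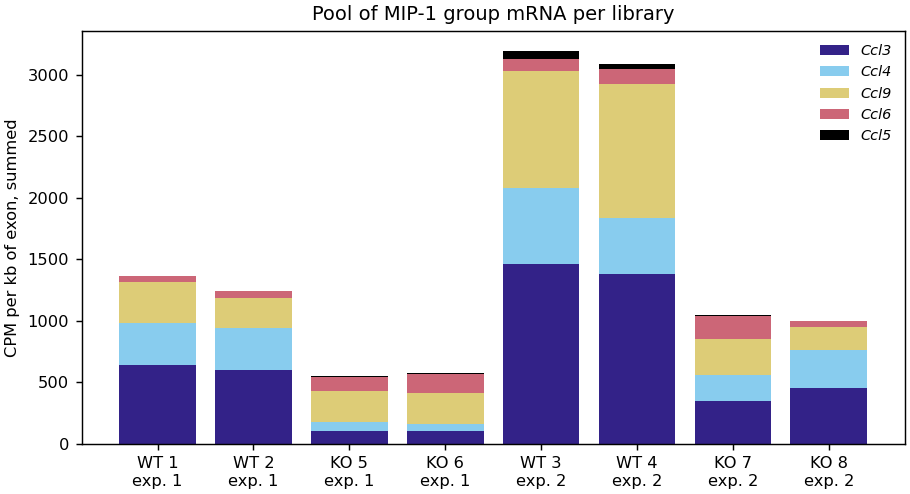
CPM per kb of exon of the 5 members, stacked for each library, with WT and KO libraries of experiment 1 on the left and of experiment 2 on the right. The stacks of WT libraries 3 and 4 reach 3192 and 3084, and those of KO libraries 5 and 6 are the lowest, at 545 and 572, with Ccl9 and Ccl6 as the larger share.

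The members were also set out by position in the cluster, without a test. From the Ccl5 end, log2 fold changes in experiment 1 were 2.38 (Ccl5), -0.22 (Ccl9), 1.28 (Ccl6), -2.63 (Ccl3) and -2.38 (Ccl4). In experiment 2 they were -3.42, -2.09, 0.10, -1.83 and -1.04 in the same order. Ccl3 and Ccl4, at one end, fell in both experiments, but Ccl9, next to Ccl5, also had negative values in both. No relation of direction to position is read from these 5 genes. The nearest annotated genes outside, Heatr9 beyond Ccl5 with 79 counts in all libraries and Gm11433 beyond Ccl4, could not extend this comparison, since Heatr9 was too low to be tested and Gm11433 is not analysed here.

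**Figure D4:**
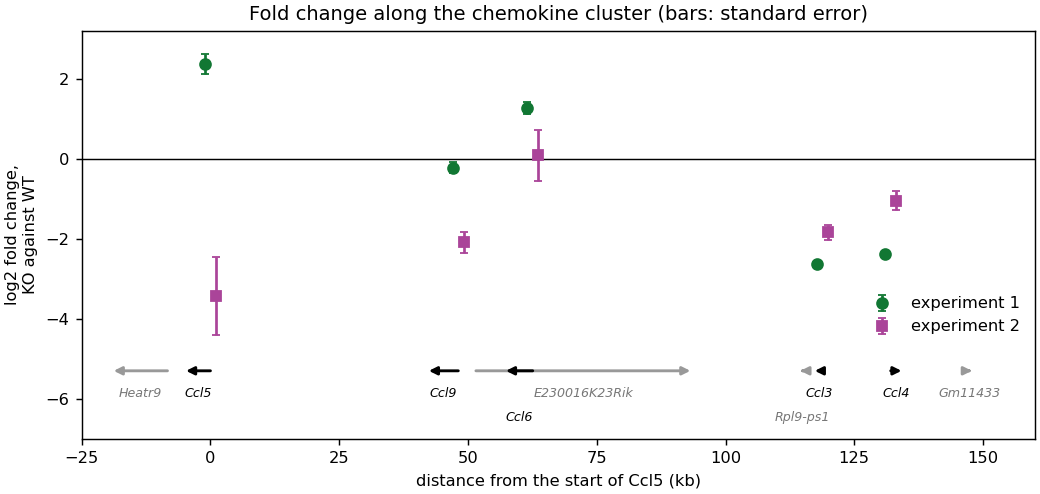
Log2 fold change of KO against WT, with standard errors, against distance in kb from the start of Ccl5, for experiment 1 (green circles) and experiment 2 (purple squares). Arrows give gene extent and strand, in grey for genes not tested. The values at the right end (Ccl3 and Ccl4) lie below 0 in both experiments, while those at 0 kb (Ccl5) lie at 2.38 and -3.42. Between them, Ccl9 lies at -0.22 and -2.09 and Ccl6 at 1.28 and 0.10.

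The genes with the most similar pattern over the 8 libraries were sought by the root mean square difference of log2 CPM, each gene centred on its own mean, among genes that averaged 1 or more in log2 CPM. Nearest to Ccl3 were Zc3h12c (0.18), Txlnb (0.27) and Ehd1 (0.29), and Ccl4 was rank 6 of 11002. Nearest to Ccl4 were RP23-252O5.3 (0.26), Slc31a2 (0.26) and Zc3h12c (0.31), with Ccl3 at rank 10. These values describe likeness over 8 libraries that share 2 experiments, and say nothing of function. For Ccl9 the nearest were Gpr132 (0.12), Zfp263 (0.20) and RP23-146O20.1 (0.20). Gpr132, a receptor of macrophages for lactate and lipids, measured 15.9 and 11.4 CPM in WT and 13.1 and 13.6 CPM in KO in experiment 1, and 45.7 and 45.5 CPM in WT and 12.6 and 9.71 CPM in KO in experiment 2. For Ccl6 they were Fabp4 (0.27), a carrier of fatty acids, Gda (0.27) and RP23-121M22.10 (0.29). For Ccl5 they were RP23-52N2.1 (0.59), Mx1 (0.62) and Ms4a4c (0.64), a looser likeness. Mx1, an antiviral GTPase induced by interferon, measured 13.5 and 12.6 CPM in WT and 49.3 and 46.9 CPM in KO in experiment 1, and 636 and 244 CPM in WT and 28.8 and 14.8 CPM in KO in experiment 2. Ranks among the other pairs of members depended on which gene was taken as the start. Of 11002 genes, Ccl9 was rank 297 for Ccl3 (0.98), 1506 for Ccl4 (0.95) and 196 for Ccl5 (1.49), and Ccl6 was rank 577 for Ccl5 (1.79), whereas the other pairings ranked between 4643 and 10906. For Ccl6, Ccl9 was rank 9796 (0.98).

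Receptors of these ligands were tested next, in a list that also held Ccrl2, which presents chemerin. Of 6 receptors listed, 3 were tested. In experiment 1, 2 fell (Ccr3 and Ccrl2) and 1 rose (Ccr1). These counts and those of the lists that follow stand beside the shares of all genes given for the members, which were 28.1% lower and 27.0% higher in experiment 1. In experiment 2, edgeR called 1 lower (Ccrl2) and none higher, with none more at an unadjusted p under 0.05, and DESeq2 called 2 lower. Jointly edgeR called none, with 1 lower (Ccrl2) at an unadjusted p under 0.05, and DESeq2 and limma-voom each called 1 lower. Ccr1, the receptor of Ccl3, Ccl5, Ccl6 and Ccl9, measured 4.11 and 3.43 CPM in WT and 12.5 and 18.5 CPM in KO in experiment 1, and 9.70 and 14.5 CPM in WT and 5.86 and 1.34 CPM in KO in experiment 2. It rose in experiment 1 (2.02, adjusted p = 0.000454) and had a log2 fold change of -1.75 in experiment 2 (adjusted p = 0.152), and the difference was -3.78 (adjusted p = 0.00853, edgeR interaction test). Ccr3 fell in experiment 1 (-1.94, adjusted p = 0.00217), from 8.34 and 13.7 CPM in WT to 3.25 and 2.55 CPM in KO. In experiment 2 it measured 4.77 and 9.37 CPM in WT and 11.5 and 3.65 CPM in KO, with a log2 fold change of 0.10 (adjusted p = 0.927). Ccrl2, an atypical receptor that presents chemerin, fell in both experiments (-0.61, adjusted p = 0.00255, and -3.08, adjusted p = 0.00510), from 108 and 84.7 CPM in WT to 13.2 and 9.66 CPM in KO in experiment 2. Ccr1l1 and Ackr2 were too low to be tested, and Ackr1 had no count.

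Downstream of the receptors, 20 genes of G protein signalling and migration were tested. In experiment 1, 8 fell and 6 rose, beside 28.1% lower and 27.0% higher of all genes, so that these counts are not read as particular to the list. In experiment 2, where 8.29% of all genes were lower and 7.52% higher, edgeR called none lower (1 at an unadjusted p under 0.05, 1 by DESeq2, none by limma-voom) and 3 higher (5 by DESeq2). Jointly 1 fell and 1 rose (1 and 3 by DESeq2), beside 3.41% and 3.72% of all genes, and the median log2 fold change was -0.07, 0.09 and -0.04 in experiment 1, in experiment 2 and in both. Rgs2, which limits signalling by G proteins, rose from 104 and 114 CPM to 230 and 235 CPM in experiment 1 and from 77.2 and 76.2 CPM to 182 and 118 CPM in experiment 2 (joint log2 fold change 1.03, adjusted p = 0.00987). Pik3r5, the regulatory subunit of the PI3 kinase that acts below chemokine receptors, fell jointly (-0.78, adjusted p = 0.0370). Its log2 fold change was -1.16 in experiment 1 (adjusted p = 3.86e-06) and -0.40 in experiment 2 (adjusted p = 0.102), and these differed (0.75, adjusted p = 0.00327, edgeR interaction test).

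Genes that regulate transcription and mRNA decay of chemokines numbered 28, all tested. In experiment 1, 18 fell and 5 rose, beside 28.1% lower and 27.0% higher of all genes. In experiment 2, 14 fell and 3 rose, beside 8.29% and 7.52%. Jointly 9 fell and 2 rose, beside 3.41% and 3.72%. The median log2 fold changes were -0.35, -0.60 and -0.65 in the same order. DESeq2 called 15 lower and 3 higher jointly, and limma-voom 9 and 2. In the joint fit the smallest p belonged to Tnfaip3 and Nfkbia, the feedback inhibitors of NF-κB that are themselves its targets. Tnfaip3 measured 134 and 112 CPM in WT and 15.2 and 17.9 CPM in KO in experiment 1, and 342 and 421 CPM in WT and 76.0 and 46.7 CPM in KO in experiment 2 (joint log2 fold change -2.76, adjusted p = 0.000940). Nfkbia measured 254 and 218 CPM in WT and 64.9 and 61.7 CPM in KO in experiment 1, and 632 and 707 CPM in WT and 109 and 100 CPM in KO in experiment 2 (-2.29, adjusted p = 0.00190). In both genes, as in Ccl3, WT and KO did not overlap. The 2 that rose jointly were Zfp36l2, an mRNA decay factor (0.85, adjusted p = 0.00351), and Mkl2, the paralog of Mkl1 (0.54, adjusted p = 0.0243), whose value of 0.49 in experiment 2 alone had an adjusted p of 0.0911. Irf1 and Irf7, which act on Ccl5 in other systems, are named here after their values were seen, because their log2 fold changes had the signs of those of Ccl5, so their likeness to it is no result. The other two interferon regulatory factors in the list were not called in experiment 1. Irf3 had log2 fold changes of -0.03 (adjusted p = 0.666) and -0.05 (adjusted p = 0.753) in experiments 1 and 2, and Irf5 of 0.0030 (adjusted p = 0.967) and -0.59 (adjusted p = 0.0297). Irf1 rose in experiment 1 (1.05, adjusted p = 1.18e-05) and fell in experiment 2 (-3.08, adjusted p = 0.00327). Irf7 rose in experiment 1 (2.33, adjusted p = 3.94e-06) and had a log2 fold change of -1.71 in experiment 2 (adjusted p = 0.104).

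**Figure D5:**
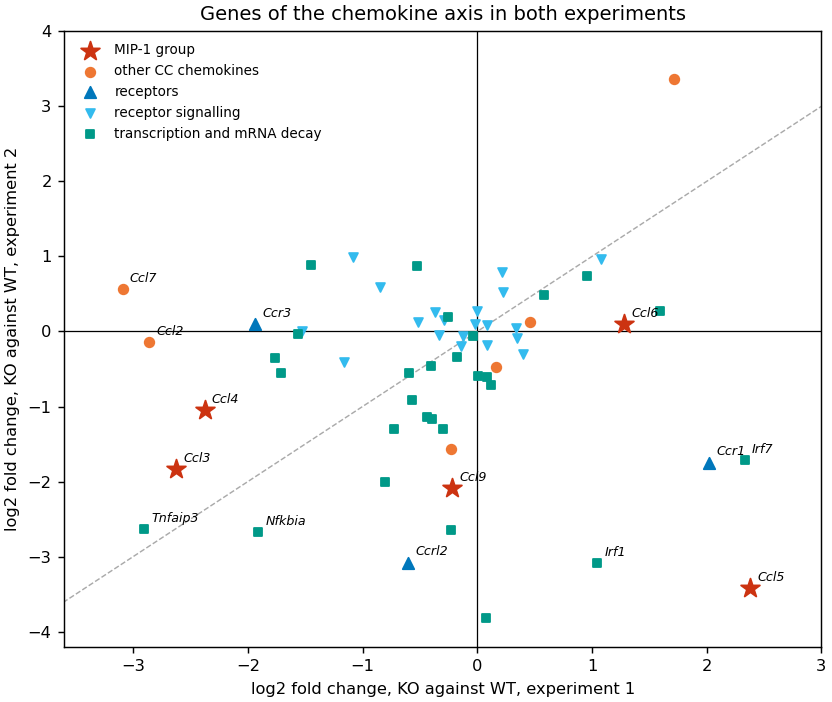
Log2 fold change of KO against WT in experiment 1 (horizontal axis) and experiment 2 (vertical axis) for the members (stars) and the tested genes of the receptor, signalling, transcription and mRNA decay lists and other CC chemokines, with the line of equal change dashed. Ccl3 and Ccl4 lie at the lower left with Tnfaip3 and Nfkbia, and Ccl5 lies at the lower right (2.38 and -3.42) with Irf1, Irf7 and Ccr1.

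Other CC chemokines were examined beside the members. Of 20 listed, 6 were tested, and 2 fell and 1 rose in experiment 1. In experiment 2 none was called by edgeR, DESeq2 or limma-voom, and none had an unadjusted p under 0.05 in edgeR. Jointly edgeR called none, with 1 higher at an unadjusted p under 0.05, DESeq2 called 1 lower and 1 higher, and limma-voom none. The median log2 fold change was -0.04, -0.01 and -0.52 in experiment 1, in experiment 2 and in both. The pair that fell were the monocyte attractants Ccl2 (-2.86, adjusted p = 0.00486) and Ccl7 (-3.09, adjusted p = 0.00783). In experiment 2 Ccl2 had a log2 fold change of -0.14 (adjusted p = 0.825) and Ccl7 one of 0.56 (adjusted p = 0.506). Both belong to the MCP group, of whose 5 genes 4 were tested, and the smallest joint p of that group was that of Ccl8, with a log2 fold change of 2.52 (adjusted p = 0.178). A list of 14 genes held those that cleave, bind or release chemokines and also Csf1, the growth factor M-CSF. Of these, 10 were tested. In experiment 1, 3 fell and 4 rose, Csf1 among those that rose, beside 28.1% lower and 27.0% higher of all genes. In experiment 2, 4 fell, Csf1 among them, beside 8.29% lower of all genes. Jointly 1 fell (2 by DESeq2), beside 3.41%. The one was Cd44, a glycoprotein of the cell surface that carries chemokines on its sugar chains (-0.66, adjusted p = 0.0272), and second by p was Sdc1 (-1.22, adjusted p = 0.0996).

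The 3' untranslated regions (UTRs) of the members were scanned for ATTTA, the core of the AU-rich element through which Zfp36 speeds the decay of cytokine mRNA, because decay factors are among the regulators above. Windows of 30 bases with matches in capitals are shown for Ccl3, which holds the most for its length, and for Ccl4.
Ccl3 3' UTR, bases 139 to 168: gactcttcacttgaaattttATTTAATTTA
Ccl4 3' UTR, bases 92 to 121: ttcagatttcctgcccctcttcttaATTTA
Ccl3 held 5 matches in 409 bases, a number that 1.01% of 1789 genes with a 3' UTR within 20% of that length reached. Ccl4 held 2 in 302 bases, a number that 13.1% of genes of like length reached. Ccl6 held 4 in 943 bases (16.2% of genes of like length reached this) and Ccl9 held 5 in 2465 bases (45.0%). Ccl5 held none in 199 bases. The longer form TTATTTATT was also sought, and no member held it. It was found in 5.96% of 13965 genes whose 3' UTR had 199 to 2465 bases, the range of the members. Zfp36 itself fell in both experiments (-0.57, adjusted p = 0.000153, and -0.92, adjusted p = 0.0213). The counts of ATTTA describe sequence, and no measurement of decay was made.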

How the data were processed

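Bulk RNA-seq of 8 BMDM libraries was used. The authors deposited whole-number counts of reads per gene for each experiment, and normalized counts, a signal that equals the counts divided by a size factor of 0.891 to 1.09 set within the experiment. The submitters' processing notes name STAR 2.7.0f, Subread 1.6.4 with featureCounts, DESeq2 1.22.1 and GRCm38. The annotation release and whether counting used strand are not given in the sources used here. The kit was TruSeq Stranded mRNA per the labels. Only counts entered the tests. No column of values was left unmapped.

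Counts were tested in R 4.3.3 with edgeR 4.0.16 (TMM, filterByExpr by genotype, robust quasi-likelihood test, Benjamini-Hochberg over 14418 genes, threshold 0.05), within each experiment, in both with an experiment term, and for the interaction of experiment and genotype. The standard error was taken as the size of the log2 fold change over the root of its F statistic. Log2 CPM used a prior count of 2. Each of the 4 members other than Ccl5 had 1652 counts or more in every library, and Ccl5 had 28 to 2440, so that counting error adds to its spread. Replicates differed by more than counting noise (chi-square per gene 12.5 to 81.9), so none was a copy. Alternatives were DESeq2 1.42.0, limma-voom (limma 3.58.1), upper-quartile scaling, no filter other than 1 count over all libraries, a minimum of 10 counts per library, an adjusted p under 0.01, each library left out, contrasts within a fit of all 4 groups, no experiment term, a prior count of 0.5 for likeness, no division by length and, chosen after the data were seen, the KO libraries exchanged between experiments. The members and gene lists were chosen with earlier results of these data known. Named were the members, Mkl1, the receptors, the 3 genes most like each member, the 2 genes of smallest joint p in the other lists, and the neighbouring genes. Of the marker lists, some genes that carried a sum or had no count were named. Genes outside this rule are said to be so or stand as examples of a count or level (Zfp36, Ccl2, Ccl7, Zfp36l2, Mkl2, Adgre1, Csf1r, Irf3, Irf5, Csf1, Flt3, Mcpt8). Exons and UTRs came from GENCODE M21, alignments from Biopython 1.88 and figures from matplotlib 3.10.9. The list of receptors is incomplete, since some genes are not reported here.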

Additional observations from a re-analysis of the deposited data

Results flagged for a closer look

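KO differed from WT by a different amount in the 2 experiments, by the interaction test of edgeR over all genes, for 4 of the 5 members. The log2 fold change of KO against WT in experiment 2 minus that in experiment 1 was 0.78 for Ccl3 and 1.32 for Ccl4, whose decrease was smaller in experiment 2. It was -5.82 for Ccl5, with log2 fold changes of 2.38 in experiment 1 (adjusted p = 0.000110, and 0.0664 with the spread of all 4 groups) and -3.42 in experiment 2 (adjusted p = 0.0797, not called), and this difference did not pass without WT library 2 (adjusted p = 0.0518). That of Ccl3 did not pass without WT library 1 (0.0568) or KO library 6 (0.0620). The difference was -1.88 for Ccl9, which fell in experiment 2. The background is wide, since 41.6% of all genes tested differed by the same test. KO libraries 5 and 6 carried fibroblast markers and KO libraries 7 and 8 lay nearer to WT libraries 1 and 2 than to those of their own experiment, and the part of either was not tested. These differences hold for the libraries as labelled, since the files cannot show whether KO libraries 5 and 6 and KO libraries 7 and 8 traded places.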

How the results depend on the processing

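Of the values of single members under the alternatives, 223 kept direction and side of the threshold, 23 no longer passed, 9 newly passed and 6 changed sign. Of the counts of members called, 77 stayed within 1.5 times the reported one and 14 did not. The number of members lower in both experiments was 1 at an adjusted p under 0.01, 0 without the experiment term and 0 with the KO libraries exchanged, each of the last pair with 3 lower at an unadjusted p under 0.05 in edgeR. Leaving out each library in turn gave 1 to 2 lower and 0 to 1 higher in both experiments. The number lower in experiment 2 was 1 at an adjusted p under 0.01, and 1 to 3 with a library left out, the lowest without KO library 8. The number higher in experiment 1 was 0 in edgeR's contrast within a fit of all 4 groups, with 2 at an unadjusted p under 0.05. The mean share of Ccl9 in the pool was 58.9% without division by length. Signs changed for Ccl9 in experiment 1 without WT library 1 (0.017, with values from -0.41 to 0.017 when a library was left out), for Ccl6 in experiment 2 with limma-voom (-0.21), without WT library 3 (-0.08) and without KO library 7 (-1.23, range -1.23 to 0.78), and for Ccl5 in both experiments without KO library 7 (0.63) and without KO library 8 (0.81, range -1.99 to 0.81). The cause was not tested. With a library left out, the lone library of its arm is assumed to vary like the others. A prior count of 0.5 left the genes named as most alike unchanged. No paired analysis was possible because WT and KO libraries share no replicate number. With 2 libraries per group and experiment, single libraries decide several calls. Depth also limits Ccl5, which had 52 and 28 counts in WT libraries 1 and 2 and 41 in KO library 8, whereas the other members had 1652 counts or more in every library.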
